A study of Mus musculus with 8 samples.

Results

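A set of 10 genes of the TGF-beta, BMP and activin pathways was examined in mouse tumors, namely the ligand genes Tgfb1, Tgfb2, Tgfb3, Bmp2, Bmp4, Bmp7, Inhba and Inhbb and the receptor genes Tgfbr1 and Tgfbr2. They were taken by gene name, and all 10 of 10 were found among the 35539 genes listed. The tumors grew from 105K cells, a Tsc2-null mouse line, grafted into female, immunocompetent, age-matched C57BL/6J mice, and all 4 groups of 2 tumors carried the same cells. Tumors A3L and C1R received rapamycin, an mTOR inhibitor, at 0.25 mg/kg/day together with loratadine, an antihistamine that blocks the histamine H1 receptor, at 25 mg/kg/day. Tumors D1L and G3L received rapamycin alone, B3R and F3R received loratadine alone, and B1L and F5L received the carboxymethylcellulose vehicle. The codes give the cage, the animal and the flank. The labels name the tissue a mammary tumor and give loratadine by the intraperitoneal route, whereas the study's methods describe subcutaneous grafts and oral loratadine. Treatment in the rapamycin groups began at a larger tumor volume than in the monotherapies, so rapamycin and starting volume cannot be told apart.

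TGF-beta, BMP and activin ligands are secreted dimers of one protein family. They bring together type II and type I serine/threonine kinase receptors at the cell surface. The type I receptor then phosphorylates Smad proteins, which enter the nucleus with Smad4 and regulate transcription. TGF-beta and activin act mainly through Smad2 and Smad3, and BMPs through Smad1, Smad5 and Smad9. TGF-beta is secreted in a latent complex that must be opened before it binds, and in connective tissue it is best known for driving collagen synthesis and fibroblast activation.

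Gene expression was given as TPM, a transcript abundance scaled to gene length and to the library's total, so levels of different genes may be compared. Depth was unknown. The libraries summed to 993546 to 994645 TPM and listed 13251 to 14371 genes at 1 TPM or more. Tsc2 stood at 42.0 to 78.1 TPM, and its source, host cells or grafted cells, was not tested. A chosen list of 10 epithelial markers summed to 759 to 2407 TPM. Some single markers varied more than the sum, such as Epcam, from 0.35 TPM in F5L to 86.1 TPM in G3L. Changes were tested with limma on log2(TPM + 1), with Benjamini-Hochberg adjustment over 15095 genes and a threshold of 0.05, and this scale understates the change of low genes. The 4 tumors with a drug were compared with the 4 without it in a model holding the other drug, and each pair of 2-tumor groups was compared on group means. Groups of whole tumors cannot tell a change in the share of cells of a type from a change in RNA per cell. Tumors came from separate animals.

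The promoters of the 3 members that passed the threshold for rapamycin were sought in RefSeq, as members called in the same comparison, and were found for Tgfb2 and Bmp4. They are printed from the base 250 before to 50 after the gene start, 5′ to 3′ on the gene's own strand, which is the minus strand for both, at chr1:186705940-186706239 for Tgfb2 and chr14:46390620-46390919 for Bmp4 in the GRCm38.p6 build. Capitals mark CAGAC, the core of the SMAD box, and CACGTG, the E-box, each read on both strands.
Tgfb2: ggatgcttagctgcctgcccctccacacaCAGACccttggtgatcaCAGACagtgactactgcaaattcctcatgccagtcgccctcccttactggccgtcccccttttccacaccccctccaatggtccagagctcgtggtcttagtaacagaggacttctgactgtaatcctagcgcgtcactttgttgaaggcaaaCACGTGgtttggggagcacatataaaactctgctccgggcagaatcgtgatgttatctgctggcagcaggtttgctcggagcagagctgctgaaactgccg
Bmp4: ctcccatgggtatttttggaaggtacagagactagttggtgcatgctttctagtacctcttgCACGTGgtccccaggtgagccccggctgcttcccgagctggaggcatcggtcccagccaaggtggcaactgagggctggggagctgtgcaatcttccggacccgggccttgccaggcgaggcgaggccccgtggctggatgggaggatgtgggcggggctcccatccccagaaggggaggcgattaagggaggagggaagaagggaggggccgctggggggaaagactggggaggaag
The Tgfb2 promoter held CAGAC 2 times and CACGTG once, and the Bmp4 promoter held CACGTG once and CAGAC 0 times. Of 32851 RefSeq promoters of this length, 49.6% held CAGAC and 7.15% held CACGTG. GTCTAGAC, held by 0.213% of promoters, and GGCGCC, held by 11.9%, were in neither, and ACGTG, held by 19.6%, lay in both only inside CACGTG. A match is a description of the letters and names no bound factor.

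The 10 genes differed widely in level. Averaged over the 8 tumors, Tgfb1 stood at 60.7 TPM and Tgfbr2 at 59.8 TPM, and their ranges overlapped almost wholly (45.7 to 85.3 TPM and 35.1 to 101 TPM). Tgfbr1 followed at 35.8 TPM, Inhbb at 27.2, Tgfb3 at 18.6, Tgfb2 at 13.1, Bmp7 at 10.7, Bmp4 at 10.6 and Inhba at 8.28 TPM, and the ranges of neighbours from Inhbb to Inhba overlapped. Bmp2 was the lowest at 0.67 TPM and passed the filter through 2 libraries only. In the plot of TPM by tumor, the vehicle tumors are lowest for Tgfb3, Bmp4, Bmp7 and Inhbb.

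**Figure D1:**
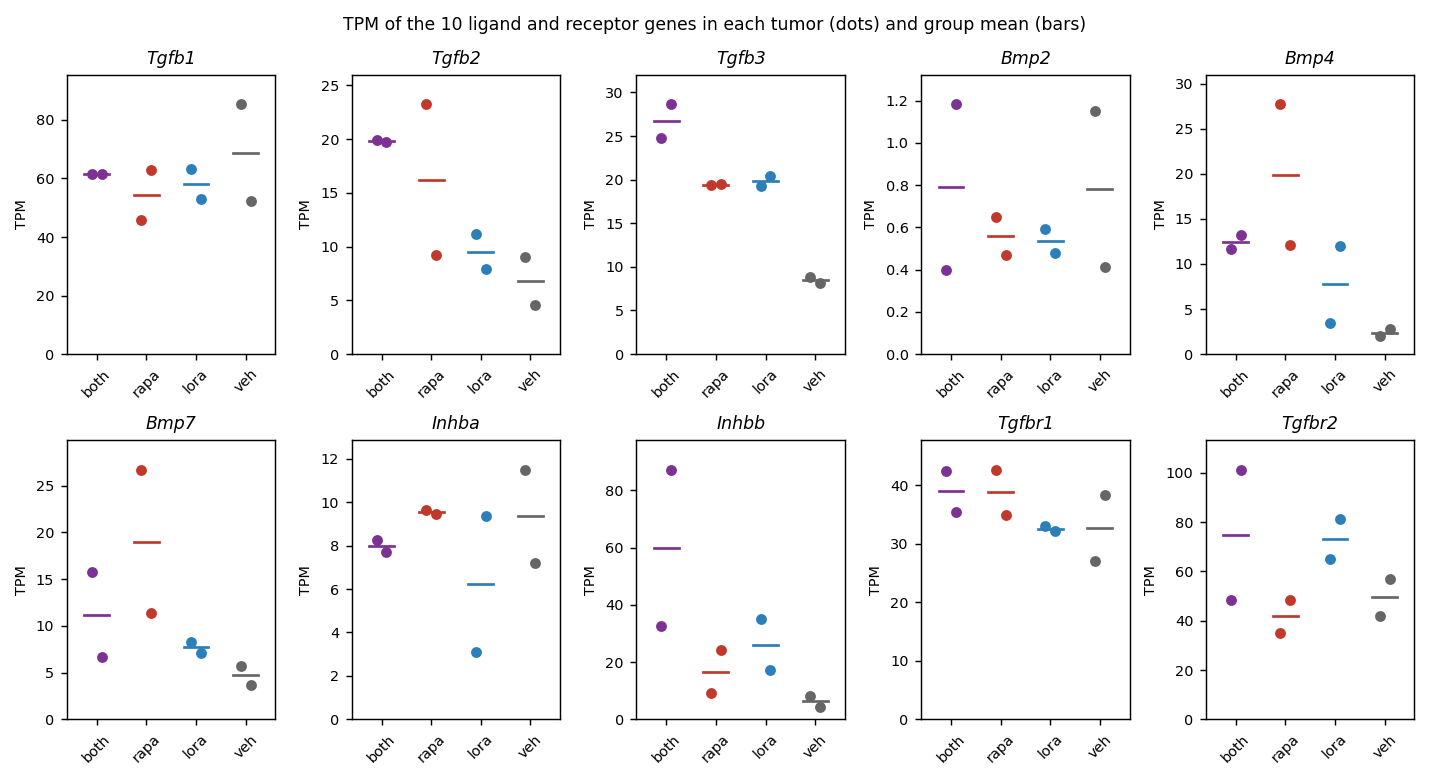
TPM (linear axes from 0) of the 10 genes in each of the 8 tumors, shown as 1 dot per tumor for both drugs, rapamycin (rapa), loratadine (lora) and vehicle (veh), with the mean of each 2-tumor group as a bar. For Tgfb3, Bmp4, Bmp7 and Inhbb all 6 drug tumors lie above both vehicle tumors, as in 21.2% of all 15095 genes tested.

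Against the tumors without rapamycin, 3 of the 10 genes were higher with it, all of them ligands, and none was lower. Tgfb3, Tgfb2 and Bmp4 passed the threshold, beside 12.0% of all 15095 genes called higher and 7.88% called lower. In none of the 10 did all 4 tumors with rapamycin lie beyond all 4 tumors without it, a separation found upward in 15.7% and downward in 10.5% of genes. The median log2 fold change of the 10 was 0.51, beside 0.12 over all genes tested. The median of all genes fell by 0.10 under median-of-ratios scaling, which turned the split of all genes called from 1813 higher and 1189 lower to 1304 higher and 1624 lower. Among the 10 members the direction of the 3 called genes held under that scaling and under quantile normalization, but only Tgfb3 kept its call there. Of 19 alternative fits the call was lost in 3 for Tgfb3, 12 for Tgfb2 and 11 for Bmp4.

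**Figure D2:**
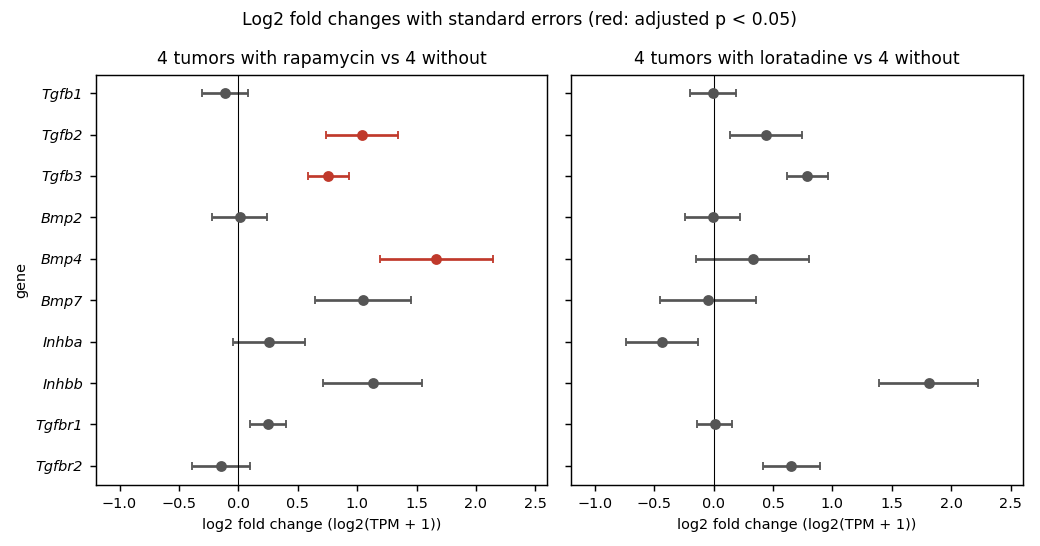
Log2 fold change on the log2(TPM + 1) scale (x axis) of the 10 genes (y axis) for 4 tumors with rapamycin against 4 without (left) and 4 with loratadine against 4 without (right), with standard errors as bars. Red marks an adjusted p under 0.05 (Tgfb2, Tgfb3 and Bmp4 for rapamycin, none for loratadine).

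Tgfb3 encodes a TGF-beta ligand best known for its part in palate fusion. It was listed on chromosome 12 (87397694 to 87419991, minus strand, NCBIM37) and had 24.8 and 28.6 TPM in tumors A3L and C1R with both drugs, 19.4 and 19.4 TPM in D1L and G3L with rapamycin, 19.3 and 20.4 TPM in B3R and F3R with loratadine, and 8.83 and 8.09 TPM in B1L and F5L with vehicle. The combination tumors were the highest and the vehicle tumors the lowest, with every single-drug tumor between. The arms averaged 23.1 ± 4.50 TPM with rapamycin and 14.2 ± 6.60 TPM without (SD, n = 4 each). The log2 fold change for rapamycin was 0.76 (SE 0.17, adjusted p = 0.024 by limma). The call was lost without B1L (adjusted p = 0.064), F5L (0.070) or D1L (0.068), and kept without each of the other tumors.

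Tgfb2 encodes a TGF-beta ligand whose binding depends on betaglycan, the product of Tgfbr3. On chromosome 1 (188447065 to 188529871, minus strand, NCBIM37), Tgfb2 had 19.96 and 19.8 TPM with both drugs, 23.2 and 9.25 TPM with rapamycin, 11.1 and 7.88 TPM with loratadine, and 9.06 and 4.55 TPM with vehicle. The 3 highest tumors all had rapamycin, but G3L with 9.25 TPM lay below B3R without it. The arms averaged 18.1 ± 6.07 TPM with rapamycin and 8.16 ± 2.76 TPM without (SD, n = 4 each), a log2 fold change of 1.04 (SE 0.30, adjusted p = 0.047). This call was close to the threshold. It was kept without G3L (adjusted p = 0.027) and lost without each of the other 7 tumors (0.061 to 0.122), and it was lost with no filter (0.089), flank as a term (0.109) and the mean of the drug's effects with and without loratadine (0.064).

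Tgfb1, the ligand that platelets and immune cells release in bulk, did not pass the threshold. It lies on chromosome 7 (26472021 to 26490096, plus strand, NCBIM37). It had 61.6 and 61.5 TPM with both drugs, 45.7 and 62.8 TPM with rapamycin, 63.2 and 53.0 TPM with loratadine, and 85.3 and 52.4 TPM with vehicle, so the groups overlapped. Its log2 fold change for rapamycin was -0.11 (SE 0.19, adjusted p = 0.694). Tgfb1 gave 51.8% to 68.6% of the summed TPM of the 3 TGF-beta genes in tumors with rapamycin and 65.2% to 82.7% in tumors without. The sum itself was 88.3 to 109.9 TPM with rapamycin and 65.0 to 103 TPM without, as shown in the plot of the 3 genes stacked by tumor.

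**Figure D3:**
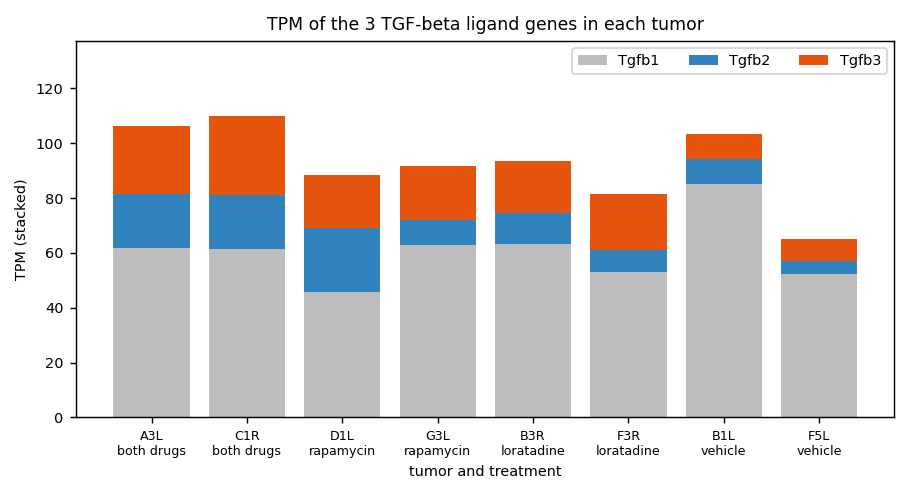
TPM of Tgfb1, Tgfb2 and Tgfb3 stacked for each tumor, so that the height of a bar is their sum, with treatment under the tumor code. Tgfb1 is the largest part in all 8 tumors, from 51.8% in D1L to 82.7% in B1L.

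Bmp4, a BMP ligand best known from embryonic patterning, had the largest log2 fold change of the 10 in the comparison of 4 tumors with rapamycin and 4 without. It lies on chromosome 14 (47003195 to 47010344, minus strand, NCBIM37). It had 11.6 and 13.2 TPM with both drugs, 27.7 and 12.1 TPM with rapamycin, 3.50 and 12.0 TPM with loratadine, and 1.99 and 2.79 TPM with vehicle. Loratadine tumor F3R lay among the rapamycin tumors, while B3R lay near the vehicle tumors. The arms averaged 16.2 ± 7.73 TPM with rapamycin and 5.08 ± 4.68 TPM without (SD, n = 4 each), a log2 fold change of 1.67 (SE 0.48, adjusted p = 0.044). The call held only without F3R (adjusted p = 0.025) among the 8 single omissions and was lost without each of the others (0.059 to 0.114), and it was lost with no filter (0.090) and with flank as a term (0.072).

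Bmp7, a BMP prominent in kidney and bone development, lies on chromosome 2 (172693513 to 172765822, minus strand, NCBIM37). It had 15.8 and 6.62 TPM with both drugs, 26.7 and 11.3 TPM with rapamycin, 8.30 and 7.07 TPM with loratadine, and 5.75 and 3.72 TPM with vehicle. D1L was the highest tumor and C1R the lowest of those with rapamycin, below both loratadine tumors. Its log2 fold change for rapamycin was 1.05 (SE 0.40, adjusted p = 0.0998), which misses the threshold. Bmp2, on the same chromosome (133377895 to 133388621, plus strand), was between 0.40 and 1.18 TPM in every tumor, with a log2 fold change of 0.01 (SE 0.23, adjusted p = 0.98). The summed TPM of Bmp2, Bmp4 and Bmp7 was 21.1 to 55.0 with rapamycin and 6.92 to 19.6 without. These 2 ranges, which rest on Bmp4 and Bmp7, did not overlap, and 15.7% of single genes separated upward. The sum leaves out Bmp6, which is not a member and had 6.73 to 37.6 TPM with rapamycin and 6.80 to 36.6 TPM without. With Bmp6 added the ranges would overlap, since it had 36.6 TPM in vehicle tumor B1L and 6.73 TPM in rapamycin tumor G3L. No test was run on the sum.

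Inhba and Inhbb encode the beta chains that pair into activins, and with the alpha chain of Inha form inhibins. Inhbb lies on chromosome 1 (121312042 to 121318825, minus strand, NCBIM37) and had 32.4 and 87.1 TPM with both drugs, 9.19 and 24.1 TPM with rapamycin, 34.9 and 17.3 TPM with loratadine, and 8.23 and 4.41 TPM with vehicle. C1R stood far above the rest and the vehicle tumors were lowest. For rapamycin its log2 fold change was 1.13 (SE 0.42, adjusted p = 0.088), which misses the threshold. Inhba, on chromosome 13 (16103684 to 16119044, plus strand), had 8.25 and 7.69 TPM with both drugs, 9.65 and 9.46 TPM with rapamycin, 3.08 and 9.38 TPM with loratadine, and 11.5 and 7.20 TPM with vehicle. Its log2 fold change was 0.26 (SE 0.30, adjusted p = 0.561). The ratio of Inhbb to Inhba TPM was 0.95 to 11.3 with rapamycin and 0.61 to 11.3 without.

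Neither receptor gene passed. Tgfbr1, the type I receptor of TGF-beta on chromosome 4 (47366094 to 47427803, plus strand, NCBIM37), had 42.5 and 35.5 TPM with both drugs, 42.7 and 35.0 TPM with rapamycin, 33.0 and 32.2 TPM with loratadine, and 27.1 and 38.4 TPM with vehicle. Its log2 fold change was 0.25 (SE 0.15, adjusted p = 0.251). Tgfbr2, the type II receptor that binds the ligand first, on chromosome 9 (115993415 to 116084383, minus strand), had 48.5 and 101 TPM with both drugs, 35.1 and 48.5 TPM with rapamycin, 64.8 and 81.2 TPM with loratadine, and 41.8 and 57.0 TPM with vehicle. The values overlapped, with a log2 fold change for rapamycin of -0.14 (SE 0.24, adjusted p = 0.695).

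In the pair comparisons, which share the vehicle tumors, Tgfb3 was the member called both with rapamycin and with both drugs. With both drugs against vehicle, Tgfb3 rose by a log2 fold change of 1.55 (SE 0.18, adjusted p = 0.012) and Inhbb by 2.94 (SE 0.63, adjusted p = 0.036), and 2 of 10 members passed beside 7.18% of all genes called higher. Bmp4 had 1.995 (SE 0.56, adjusted p = 0.063) and Tgfb2 1.48 (SE 0.46, adjusted p = 0.078), neither past the threshold, and Bmp7 had 1.002 (SE 0.50, adjusted p = 0.212). Rapamycin against vehicle gave calls for Tgfb3, at 1.11 (SE 0.18, adjusted p = 0.021), and Bmp4, at 2.52 (SE 0.56, adjusted p = 0.036), beside 6.65% of genes called higher. Bmp7 had 1.71 (SE 0.50, adjusted p = 0.067), Inhbb 1.18 (SE 0.63, adjusted p = 0.239) and Tgfb2 1.08 (SE 0.46, adjusted p = 0.156). Tgfb1, Bmp2, Inhba, Tgfbr1 and Tgfbr2 had -0.31 to 0.25 with rapamycin and -0.18 to 0.51 with both drugs against vehicle, none past the threshold. For rapamycin against vehicle, neither call held with array weights (adjusted p = 0.052 for Tgfb3 and 0.081 for Bmp4) or with only the 2 groups in the fit (0.104 and 0.088), and Bmp4 was also lost with no filter (0.082) and with flank as a term (0.062). For both drugs against vehicle, neither call held with flank as a term (adjusted p = 0.0503 for Tgfb3 and 0.124 for Inhbb), and Inhbb was also lost with no filter (0.078), quantile normalization (0.051) and only the 2 groups (0.051). The 2-group fits of rapamycin or both drugs against vehicle rested on 2 tumors a group, and every Tgfb3, Bmp4 and Inhbb call named here was lost without at least 3 of the 8 tumors. Without one of B1L, F5L or G3L, Tgfb3 had an adjusted p of 0.052 to 0.088 for rapamycin against vehicle, and without one of B1L, A3L or C1R it had 0.051 to 0.080 for both drugs against vehicle. Bmp4 had 0.0502 to 0.148 without any single tumor other than B3R or F3R (rapamycin against vehicle), and Inhbb 0.056 to 0.124 without any single tumor other than D1L or G3L (both drugs against vehicle). In all, 5 of 10 members had both rapamycin tumors above both vehicle tumors (35.5% of all genes), 5 had both combination tumors above them (45.7%) and 5 had both loratadine tumors above them (33.0%). All 6 drug tumors lay above both vehicle tumors for 4 members (Tgfb3, Bmp4, Bmp7 and Inhbb), beside 21.2% of genes.

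For loratadine no member and no gene passed (0% of genes; 1255 of 15095 genes and 3 of 10 members had an unadjusted p under 0.05, and the smallest adjusted p was 0.40). No member had its 4 tumors with loratadine beyond the 4 without, against 2.42% of genes upward and 0.325% downward. Inhbb had a log2 fold change of 1.81 (SE 0.42, adjusted p = 0.559), Tgfb3 0.79 (SE 0.17, adjusted p = 0.559) and Tgfbr2 0.66 (SE 0.24, adjusted p = 0.589), and those 3 are the members with an unadjusted p under 0.05. Tgfb2 had 0.44 (SE 0.30), Bmp4 0.33 (SE 0.48) and Inhba -0.44 (SE 0.30), with adjusted p between 0.679 and 0.85. Tgfb1, Bmp2, Bmp7 and Tgfbr1 had -0.05 to 0.01 (adjusted p from 0.984 to 0.996). The tumors of 3 of the 4 loratadine animals lay on the right flank and all others on the left, and with flank as a term in the fit Inhbb had 0.94 (SE 0.62), Tgfb3 0.46 (SE 0.28) and Tgfbr2 0.08 (SE 0.35), so flank and drug could be separated only in part. Vehicle and loratadine tumors shared cages B and F. Tgfb3 had 19.3 TPM in loratadine tumor B3R and 8.83 TPM in vehicle tumor B1L of cage B, and 20.4 TPM in F3R and 8.09 TPM in F5L of cage F. In both cages the loratadine tumor lay on the right flank and the vehicle tumor on the left. Drug and flank therefore cannot be told apart in these pairs or between the loratadine and vehicle groups.

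Loratadine against vehicle called 0.0199% of genes and no member (1826 genes and 2 members at an unadjusted p under 0.05), with Tgfb3 at 1.14 (SE 0.18, adjusted p = 0.191), Inhbb at 1.86 (SE 0.63, adjusted p = 0.349) and Bmp4 at 1.19 (SE 0.56, adjusted p = 0.438). Both drugs against rapamycin called no gene (0%; 359 genes and 2 members at an unadjusted p under 0.05), and both drugs against loratadine called none (0%; 2204 genes and 0 members). Against loratadine alone, both combination tumors lay above both loratadine tumors for Tgfb2, Tgfb3 and Tgfbr1, which is 3 of 10 members beside 33.8% of genes, and the log2 fold changes of the 10 ran from -0.05 to 1.08 (adjusted p from 0.371 to 0.967). Against rapamycin alone, both combination tumors lay above both rapamycin tumors for Tgfb3, Inhbb and Tgfbr2, which is 3 of 10 members beside 19.4% of genes, and below them for Inhba, which is 1 of 10 beside 6.65% of genes. The log2 fold changes of Tgfb3, Inhbb and Tgfbr2 were 0.44, 1.76 and 0.75 (SE 0.18, 0.63 and 0.36), each with an adjusted p of 1. The interaction of the drugs called 0.00662% of genes and no member (719 genes and 1 member at an unadjusted p under 0.05). Its estimates were -0.70 (SE 0.26, adjusted p = 0.925) for Tgfb3, -1.72 (SE 0.79, adjusted p = 0.925) for Bmp4 and -1.33 (SE 0.71, adjusted p = 0.925) for Bmp7, so no difference between the loratadine effect with and without rapamycin was shown.

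Outside the 10 genes, 77 of the 100 pathway genes reported here passed the filter on low values, and 15 of them rose and 1 fell with rapamycin, with a median log2 fold change of 0.25, beside 12.0% of all genes called higher, 7.88% called lower and a median of 0.12. Among other ligands, 1 of 6 rose and 1 fell. Gdf15, a stress-induced distant relative of the family, fell to 115 ± 47.7 TPM in tumors with rapamycin, against 424 ± 110 TPM without (SD, n = 4 each; log2 fold change -1.90, adjusted p = 0.0073). Inha, the inhibin alpha chain, rose by 0.94 (adjusted p = 0.022) but was at most 1.81 TPM. Of 12 other receptors 2 rose, namely Tgfbr3, which had 26.0 ± 7.37 TPM with rapamycin and 11.5 ± 2.14 TPM without (1.09, adjusted p = 0.020), and the activin receptor Acvr2b (0.89, adjusted p = 0.045). Smad6, an inhibitory Smad that BMP signals induce, was the 1 of 7 Smads that rose, with 8.89 ± 0.93 TPM with rapamycin and 4.01 ± 1.78 TPM without (1.05, adjusted p = 0.026), and it is also the only 1 of 11 BMP targets that did.

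Of the extracellular inhibitors and latency proteins, 5 of 16 were higher and 0 lower, beside 12.0% and 7.88% of all genes. Ltbp3 and Ltbp4, which anchor latent TGF-beta in the matrix, rose by 1.32 and 1.91 (adjusted p = 0.011 and 0.0098). Nbl1, a BMP antagonist, rose by 2.19 (adjusted p = 0.026), with 190.6 and 157 TPM with both drugs, 72.5 and 187 TPM with rapamycin, 64.2 and 71.3 TPM with loratadine, and 6.28 and 26.8 TPM with vehicle. For Nbl1 the arms with and without rapamycin did not overlap, but only narrowly (D1L against F3R), and 15.7% of all genes separated upward. Ltbp3 separated too, with 173 to 272 TPM with rapamycin and 62.8 to 113 TPM without. So did Ltbp4, with 14.7 to 31.3 TPM with rapamycin and 2.10 to 8.30 TPM without. Fstl1 rose by 1.41 (adjusted p = 0.023). In processing and activation 2 of 10 rose, Mmp2 by 2.002 (adjusted p = 0.019) and Itgav by 0.92 (adjusted p = 0.024). Itgav encodes the alpha chain of integrins that activate latent TGF-beta when paired with a beta chain. The beta chain gene Itgb6 had 0.43 (adjusted p = 0.453), not past the threshold.

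Among the 19 targets of TGF-beta or activin reported here, 4 rose with rapamycin, beside 12.0% of all genes called higher. Col1a1 and Col1a2, the fibrillar collagen chains, rose by 1.02 (adjusted p = 0.025) and 0.87 (adjusted p = 0.026), Ldlrad4, an inhibitor of the pathway, by 0.98 (adjusted p = 0.023), and Ski, a repressor of Smads, by 0.85 (adjusted p = 0.015). Ctgf, Tagln and Acta2, other targets added after their values were seen, had log2 fold changes of -0.0043, -0.32 and -0.17, none past the threshold. The reported targets not past the threshold ran from -0.64 (Bhlhe40) to 1.26 (Ltbp2), so these 3 do not stand for the rest. For loratadine 0 of 77 passed, with a median of 0.30 beside 0.10 over all genes, and the smallest unadjusted p values per list were those of Gdf15 (-0.57), Eng (0.47), Smad2 (0.26), Twsg1 (0.52), Mmp2 (1.75), Col1a2 (0.98) and Id4 (0.50).

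**Figure D4:**
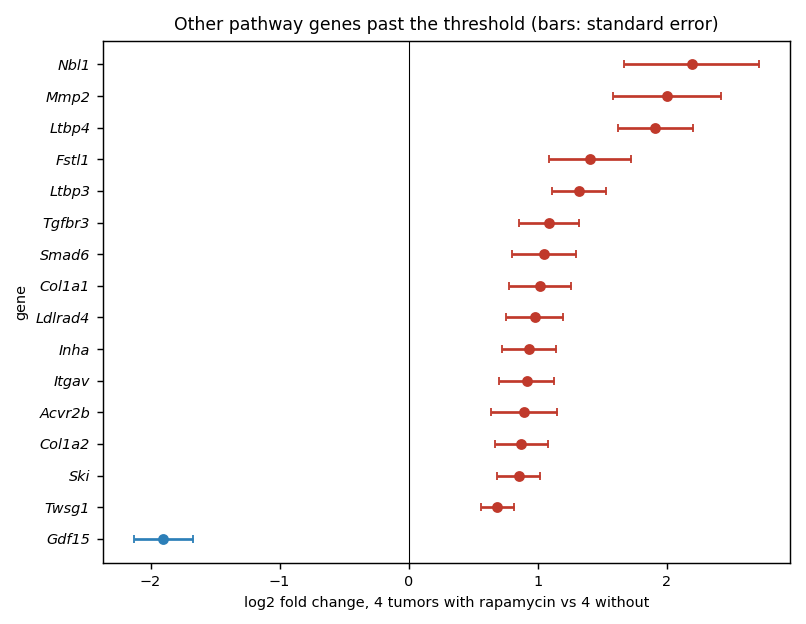
Log2 fold change on the log2(TPM + 1) scale (x axis) with its standard error (bars) of the 16 reported pathway genes outside the 10 members that passed the threshold for 4 tumors with rapamycin against 4 without (y axis, sorted). The 15 that rose are red, from Twsg1 at 0.69 to Nbl1 at 2.19, and Gdf15, which fell, is blue.

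Sums of cell type markers also differed between the tumors. The 15 fibroblast and pericyte markers, none at 0 in all tumors, summed to 526 to 4118 TPM with rapamycin and 276 to 1188 TPM without, and to 638 to 4118 TPM with loratadine and 276 to 1466 TPM without. C1R, highest for Tgfb3 and Inhbb, had the highest sum at 4118 TPM. The vehicle tumors had the lowest sums and were also lowest for Tgfb3 and Inhbb. Dcn alone had 2624 TPM in C1R, and Dcn and Col1a1 are also in the pathway lists. Not every marker followed the sum, and Kcnj8 was highest in vehicle tumors B1L and F5L (3.99 and 3.55 TPM). The 10 cell cycle genes summed to 65.8 to 269 TPM with rapamycin and 597 to 930 TPM without, the 10 T cell markers to 47.6 to 128 TPM with rapamycin and 13.3 to 39.4 TPM without, and the 12 blood endothelial markers to 61.0 to 104 TPM with rapamycin and 109 to 157 TPM without. The 8 muscle fibre markers summed to 173 TPM in C1R and to at most 10.2 TPM elsewhere, and the 8 mast cell markers to 579 TPM in G3L and to at most 106 TPM elsewhere. The 8 adipocyte markers summed to 524 and 18.2 TPM with both drugs (A3L and C1R), 195 and 13.2 TPM with rapamycin (D1L and G3L), 708 and 458 TPM with loratadine (B3R and F3R), and 57.0 and 33.6 TPM with vehicle (B1L and F5L). The part of these in the members' values was not tested.

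The genes of the pathway and marker lists most like each member over the 8 tumors, by Pearson r of log2(TPM + 1), were Fstl1 (0.971) and Fap (0.968) for Tgfb3, Col3a1 (0.97) and Pcsk5 (0.966) for Inhbb, and Tgfbr3 (0.959) and Id3 (0.932) for Tgfb2. For Bmp4 they were Smad6 (0.891) and Itgav (0.89), for Bmp7 Itgav (0.915) and Notch3 (0.914), and for Tgfbr2 Mrc1 (0.873) and Nrros (0.866). For Tgfb1, Inhba, Bmp2 and Tgfbr1 the highest r were 0.814 (Id2), 0.661 (Rgmb), 0.854 (Mylpf) and 0.812 (Ltbp4). Each r was picked as among the highest of 177 candidate genes over only 8 tumors, so high values arise from the search itself. The 8 tumors share treatments, and the likeness is a description.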

How the data were processed

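The RNA of 8 tumors was sequenced, and the authors deposited gene values in TPM in 2 tables that differ by at most 5e-07; the first was used. The study's methods describe trimmed single-end reads quantified with Kallisto and tximport on mm9, whereas STAR 2.4.0f1, SAMtools 0.1.18 and bedtools are listed in the processing notes of the submitters, and which of these made the values is not settled. Values were taken as log2(TPM + 1), with genes kept at 1 TPM or more in at least 2 libraries (15095 of 35539), and tested in limma 3.58.1 (R 4.3.3) with empirical Bayes moderation and an intensity trend, two-sided, with Benjamini-Hochberg adjustment over all genes kept. The study's DESeq2 test needs counts, which were not used here. Rapamycin and loratadine were terms of an additive model (5 residual degrees of freedom), and pairs and the interaction came from group means (4). The fit was tested on simulated data. TPM gives no depth, so no counting interval is given. Gene positions are from the Ensembl-based annotation of NCBIM37 (mm9), and promoters from RefSeq on GRCm38.p6, matched by symbol for 7 of 10 members. The TPM of all 10 members is given in every group, and fold changes singly or as a range. Of the other pathway genes, those past the threshold with the largest changes are named, up to 4 a list, or those with the smallest p. Tagln, Acta2, Ctgf, Bhlhe40 and Ltbp2 were added after their values were seen. The members and lists were chosen with earlier results of these data known. A gene of the fixed lists is not reported here. Alternatives were another pseudocount, filter, scaling, weighting, flank, cage, table or set of libraries.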

Additional observations from a re-analysis of the deposited data

Results flagged for a closer look

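The 4 values below each stood apart from the other 3 tumors of a 4-tumor arm, by a gap beyond Dixon's 95% critical value, and 40 such arms were examined. For independent draws from a single normal distribution, chance would flag about 1 in 20 arms. The arms here mix treatment groups and share tumors, so that rate is only a guide. Tgfb1 was 45.71 TPM in D1L, the lowest of the tumors with rapamycin. Bmp4 was 27.7 TPM in D1L, the highest of the tumors with rapamycin. Bmp4 was 12.04 TPM in F3R, the highest of the tumors without rapamycin. Bmp4 was 3.496 TPM in B3R, the lowest of the tumors with loratadine.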

How the results depend on the processing

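The rapamycin comparison called 3 members, but 1 with no filter, median-of-ratios scaling, quantile normalization or flank as a term. It called 4 with array weights, where Bmp7 was gained, and 0 to 2 when 1 tumor was left out. Rapamycin against vehicle called 2, but 1 with no filter or flank as a term, 0 with array weights or only the 2 groups, and 0 to 2 when 1 tumor was left out. Both drugs against vehicle called 2, but 1 with no filter or quantile normalization, 4 with array weights, 0 with flank as a term, and 0 to 4 when 1 tumor was left out. Over all genes rapamycin called 3002, 941 with flank as a term, 5218 with array weights and 2093 with no filter. Rapamycin against vehicle called 1790 genes over all 8 libraries and 2 with only the 2 groups, and both drugs against vehicle 1600. Leaving out 1 tumor gave 948 to 2863 genes for rapamycin, 29 to 1134 for rapamycin against vehicle and 4 to 2251 for both drugs against vehicle. In all, 176 of 187 alternative fits of the 10 members for rapamycin kept the sign, 26 lost a call and 2 gained one; for loratadine 167 of 187 kept the sign and none was called. For rapamycin, the values that changed sign were these: Bmp2 was -0.042 with median-of-ratios scaling, -0.23 with quantile normalization, -0.052 with array weights and -0.076 to 0.105 when 1 tumor was left out; Tgfb1 ranged from -0.212 to 0.065 and Inhba from -0.049 to 0.490 when 1 tumor was left out; Tgfbr2 was 0.046 with flank as a term and ranged from -0.372 to 0.046 when 1 tumor was left out. For loratadine the 20 changes of sign fell in 5 genes: Tgfb1 ranged from -0.134 to 0.175 over the alternatives, Bmp2 from -0.290 to 0.086, Bmp7 from -0.281 to 0.321 and Tgfbr1 from -0.104 to 0.159, while Bmp4 was -0.29 with flank as a term and ranged from -0.15 to 0.73 when 1 tumor was left out. The cause was not tested. The replicate numbers, given in accession order, pair no samples, and cages shared across groups were found only for loratadine and vehicle, where the fit with cage as a block called 0 members, as did the fit without it.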
